A study of Mus musculus with 24 samples.

Results

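C2C12 myoblasts given linoleic acid (LA) were compared with C2C12 myoblasts given ANGPTL4 protein at day 2 of muscle differentiation. The 8 libraries were taken by their labels, 4 with LA and 4 with ANGPTL4, out of 24 in the series. C2C12 is a mouse myoblast line, of wild-type genotype per the labels. In every group the growth medium held 10% fetal bovine serum, and differentiation was started by a change to 2% horse serum. LA, an omega-6 fatty acid written 18:2, was given at 100 µM bound to bovine serum albumin, and recombinant mouse ANGPTL4 at 10 ng/mL, in both cases during differentiation. The 4 vehicle libraries of day 2 and the LA and ANGPTL4 libraries of day 6, 4 of each, serve here as points of reference. The labels do not say what the vehicle contained or whether the albumin carrier was part of it. Nor do they say whether the 4 libraries of a group came from separate cultures, so p-values measure the spread between libraries, which may be technical. As models the groups are limited to 1 cell line and 1 dose of each agent.

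Long-chain fatty acids are ligands of the PPAR nuclear receptors, which switch on genes for fatty acid transport, storage and oxidation in muscle cells. Angptl4 is itself among the genes known to respond to PPARs. Its product is released from cells and blocks lipoprotein lipase, the enzyme that frees fatty acids from circulating triglyceride. Per its title and design text, the study asked which pathways respond to LA and to ANGPTL4, with the Wnt/β-catenin pathway in view. Wnt proteins stabilise β-catenin, which drives transcription with TCF/LEF factors and takes part in myoblast differentiation. Setting the fatty acid against the protein shows which transcripts differ between the 2 treatments.

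Libraries were made from transcript 3′ ends and the deposited values were read counts per gene. Totals were 9.55 to 25.05 M counts with LA (mean 19.15 ± 7.31, SD, n = 4) and 13.2 to 20.6 M with ANGPTL4 (16.65 ± 3.45). The difference of 2.5 M was within the spread of the libraries (2-sided exact permutation p = 0.6, where 70 splits allow no p below 0.0286). Levels are given below in CPM, a gene's counts per 1 M counts of the scaled library. Fold changes are LA over ANGPTL4, as log2 fold change (log2FC), and a gene was called at a Benjamini-Hochberg adjusted p under 0.05 over the 12994 genes tested with edgeR's quasi-likelihood method.

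Before the results, 3 libraries need mention. In a principal component analysis of the day 2 libraries, LA replicate 3 lay at 20.8 on the first component, which held 30.3% of the variance. The other LA libraries lay between -4.28 and -2.58, the ANGPTL4 libraries between 4.29 and 19 and the vehicle libraries between -19.9 and -12. On the second component (15%), LA replicate 4 lay at 5.75 while LA replicates 1 to 3 lay between -17.1 and -11.5. ANGPTL4 replicate 4 lay at -8.66 on it, against 7.81 to 11 for the other ANGPTL4 libraries. In Angptl4, described below, LA replicates 3 and 4 lay with the other LA libraries and ANGPTL4 replicate 4 lay far below them, but its level does not tell ANGPTL4 libraries from vehicle libraries. Results that rest on these libraries are given with and without them.

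**Figure D1:**
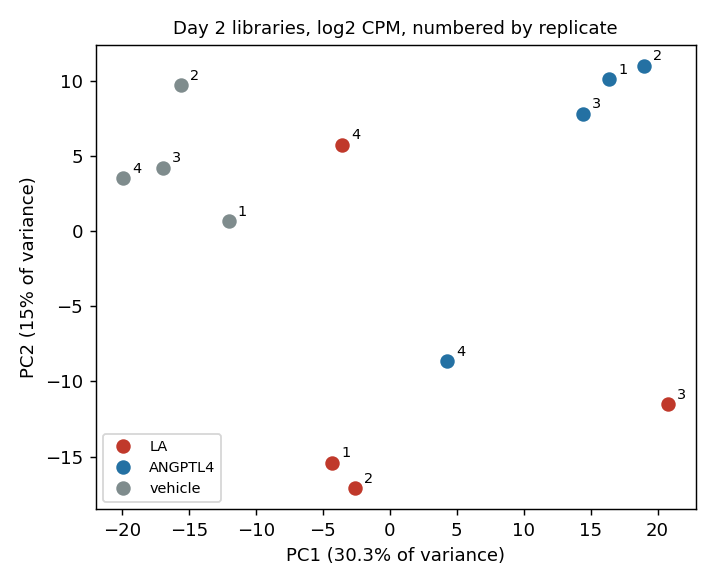
Day 2 libraries on the first principal components of log2 CPM, numbered by replicate; x, first component (30.3% of variance), y, second component (15%), with LA in red, ANGPTL4 in blue and vehicle in grey. LA replicate 3 sits at 20.8 on the x axis beside the ANGPTL4 libraries, and LA replicate 4 and ANGPTL4 replicate 4 lie away from their groups on the y axis.

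At day 2 few genes were called between the 2 treatments. Of 12994 genes tested, 12 were called (0.0924%), 8 higher with LA (0.0616%) and 4 lower (0.0308%). The genes that rose with LA included Angptl4 itself, Cpt1a and Plin2, which act in fatty acid handling, and Ucp2, a carrier of the inner mitochondrial membrane. Those that fell included Oxct1, an enzyme of ketone body use, and Prkg2, a cGMP-dependent protein kinase. Of the called genes 3, Angptl4, Tesmin and Scamp3, differed by 2-fold or more. Unadjusted p-values were under 0.05 for 1607 genes (12.4%), and DESeq2 and limma-voom called 32 and 22. Without LA replicate 4, LA replicate 3 or ANGPTL4 replicate 4, edgeR called 363, 159 and 102, as given below. The small number of calls therefore does not show that few genes differed. In 11 of the 12 called genes the 4 LA libraries lay entirely on the stated side of the 4 ANGPTL4 libraries, the exception being Scamp3. Over all genes tested, 654 showed such a separation (5.03%), 250 with LA higher (1.92%) and 404 with LA lower (3.11%), and the median log2FC was -0.0025.

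The RefSeq promoter table held 8 of the 12 called genes, among them Cpt1a, Plin2 and Ucp2, the 3 in the lipid lists described below. The 250 bases before their annotated starts are shown because PPARs bind repeats of the hexamer AGGTCA. They are given 5′ to 3′ on the strand of the gene in build GRCm38.p6, which is not the build of the count table, with any AGGTCA or its reverse complement TGACCT in capitals. Cpt1a lies at chr19:3323051-3323300 (plus strand), Plin2 at chr4:86670060-86670309 (minus strand) and Ucp2 at chr7:100493108-100493357 (plus strand).
Cpt1a: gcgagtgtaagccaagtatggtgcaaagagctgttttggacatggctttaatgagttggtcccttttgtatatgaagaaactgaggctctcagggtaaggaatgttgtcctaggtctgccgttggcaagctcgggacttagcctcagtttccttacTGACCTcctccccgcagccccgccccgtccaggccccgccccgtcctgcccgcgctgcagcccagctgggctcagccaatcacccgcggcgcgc
Plin2: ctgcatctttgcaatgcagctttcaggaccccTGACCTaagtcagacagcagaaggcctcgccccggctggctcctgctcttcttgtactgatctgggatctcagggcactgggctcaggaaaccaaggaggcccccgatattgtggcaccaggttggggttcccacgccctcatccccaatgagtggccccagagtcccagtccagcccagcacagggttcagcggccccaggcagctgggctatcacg
Ucp2: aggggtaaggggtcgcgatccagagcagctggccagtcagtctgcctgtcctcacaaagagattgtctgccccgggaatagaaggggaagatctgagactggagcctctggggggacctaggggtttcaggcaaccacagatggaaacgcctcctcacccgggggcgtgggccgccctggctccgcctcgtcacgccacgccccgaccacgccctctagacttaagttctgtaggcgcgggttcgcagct
The hexamer occurred once before Cpt1a, ending 89 bases from the start, and once before Plin2, ending 213 bases from it, each time as TGACCT. It was not found in this window of Ucp2. On either strand it occurs in 4607 of 32851 promoter windows of this length (14%), so its presence in these is a description of the letters and not of a binding site. A direct repeat of it with a single base between, AGGTCANAGGTCA searched on both strands, was found in none of the called genes' windows and in 11 of all windows (0.0335%).

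Angptl4 was the gene that differed most. Its level was 82.4, 82.7, 81.8 and 79.8 CPM in the LA libraries, against 22.4, 21.3, 21 and 21.6 CPM in the ANGPTL4 libraries and 18.6, 21.8, 18.8 and 21.8 CPM in the vehicle libraries. LA libraries lay close together and far above both other groups, which overlapped. The rise over ANGPTL4 was 3.78-fold (95% interval 3.46 to 4.14; log2FC 1.92, SE 0.062, adjusted p = 2.04e-21). ANGPTL4 against vehicle gave a log2FC of 0.087 (interval -0.058 to 0.23, adjusted p = 0.463) and was not called.

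Cpt1a encodes carnitine palmitoyltransferase 1A, which commits long-chain fatty acids to entry into mitochondria. It measured 142, 141, 141 and 141 CPM with LA, against 87.4, 87.9, 92.9 and 91.7 CPM with ANGPTL4 and 90.5, 86.9, 81.2 and 93.6 CPM with vehicle. The LA libraries were again all above the others, and the ANGPTL4 and vehicle libraries overlapped. The difference between LA and ANGPTL4 was 1.57-fold (1.47 to 1.68; log2FC 0.65, SE 0.047, adjusted p = 3.04e-11).

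Plin2, the perilipin that coats lipid droplets, had 101, 104, 108 and 100 CPM with LA, 80.1, 86.8, 81.6 and 90.7 CPM with ANGPTL4 and 81.4, 75.2, 72.2 and 74.3 CPM with vehicle. All LA libraries were higher than all ANGPTL4 libraries, by 1.22-fold in the mean (1.14 to 1.31; log2FC 0.29, SE 0.05, adjusted p = 0.00352). Against vehicle, Plin2 rose with LA (log2FC 0.45, adjusted p = 1.57e-06) and, less far from vehicle, with ANGPTL4 (0.16, adjusted p = 0.0429). These comparisons share their vehicle libraries, and each shares a group with the comparison of LA and ANGPTL4. Over all genes, LA against vehicle called 1961 (15.1%), 1075 higher (8.27%) and 886 lower (6.82%), and ANGPTL4 against vehicle called 1276 (9.82%), 502 higher (3.86%) and 774 lower (5.96%).

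Ucp2, a carrier of the inner mitochondrial membrane, had 184, 181, 178 and 189 CPM in LA libraries, against 146, 129, 130 and 137 CPM in ANGPTL4 libraries and 113, 131, 128 and 143 CPM in vehicle libraries. The groups given LA and ANGPTL4 did not overlap (1.35-fold, 1.2 to 1.51; log2FC 0.43, SE 0.081, adjusted p = 0.0203). The call was lost without LA replicate 1 (adjusted p = 0.0571), LA replicate 2 (0.0548), ANGPTL4 replicate 2 (0.0918) or ANGPTL4 replicate 3 (0.0684).

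Klf11, a zinc finger transcription factor of the Krüppel-like family, had 19.1, 21.4, 16.8 and 20.5 CPM with LA, 9.85, 12.5, 15 and 10.6 CPM with ANGPTL4 and 11.5, 13.2, 13 and 9.98 CPM with vehicle. Its rise was 1.61-fold (1.39 to 1.86; log2FC 0.68, SE 0.10, adjusted p = 0.000653). It is no member of the lipid lists used here.

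Of the other genes called higher, Tesmin and Scamp3 were counted at very low levels and are named because they were called, after their values were seen. Tesmin, which encodes a cysteine-rich protein known from testis, had 2.68, 4.49, 2.39 and 2.76 CPM with LA, against 0.582, 1.62, 1.06 and 1.33 CPM with ANGPTL4 and 1.59, 1.56, 2.01 and 1.24 CPM with vehicle (log2FC 1.46, SE 0.24, adjusted p = 0.0016). In the annotation of GRCm38 it is the next gene downstream of Cpt1a on the same strand, and whether its reads came from Cpt1a transcripts was not tested. Scamp3, a membrane protein of secretory vesicles, had 2.01, 2.33, 2.47 and 0.818 CPM with LA and 0.679, 0.406, 1 and 0.813 CPM with ANGPTL4, so that LA replicate 4 lay inside the ANGPTL4 range (log2FC 1.45, SE 0.30, adjusted p = 0.032). Its adjusted p was 0.098, 0.136, 0.111 and 0.164 without LA replicate 1, LA replicate 2, ANGPTL4 replicate 1 or ANGPTL4 replicate 2. For Tesmin, leaving out any library of the compared groups kept the call. A fit of only the compared groups lost it (adjusted p = 0.134), as did thinning to the smallest total (0.292), and the filter of 5 CPM removed the gene.

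Spaca6, known from sperm for its part in gamete fusion, stood apart from the others because the ANGPTL4 group was the low one. It had 18.8, 17.3, 12.4 and 17.7 CPM with LA, 10.4, 10.6, 12 and 12.3 CPM with ANGPTL4 and 17.9, 16.9, 17.4 and 21.2 CPM with vehicle. LA exceeded ANGPTL4 (log2FC 0.54, SE 0.11, adjusted p = 0.036) while ANGPTL4 lay below vehicle (log2FC -0.70, adjusted p = 0.00184) and LA was not called against vehicle (-0.16, adjusted p = 0.339). The call of LA against ANGPTL4 rests on most libraries: it was lost without LA replicate 1 (adjusted p = 0.275) or 2 (0.142), ANGPTL4 replicate 1 (0.111), 2 (0.162) or 3 (0.0622), and the day 6 LA replicate 1 (0.0531).

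**Figure D2:**
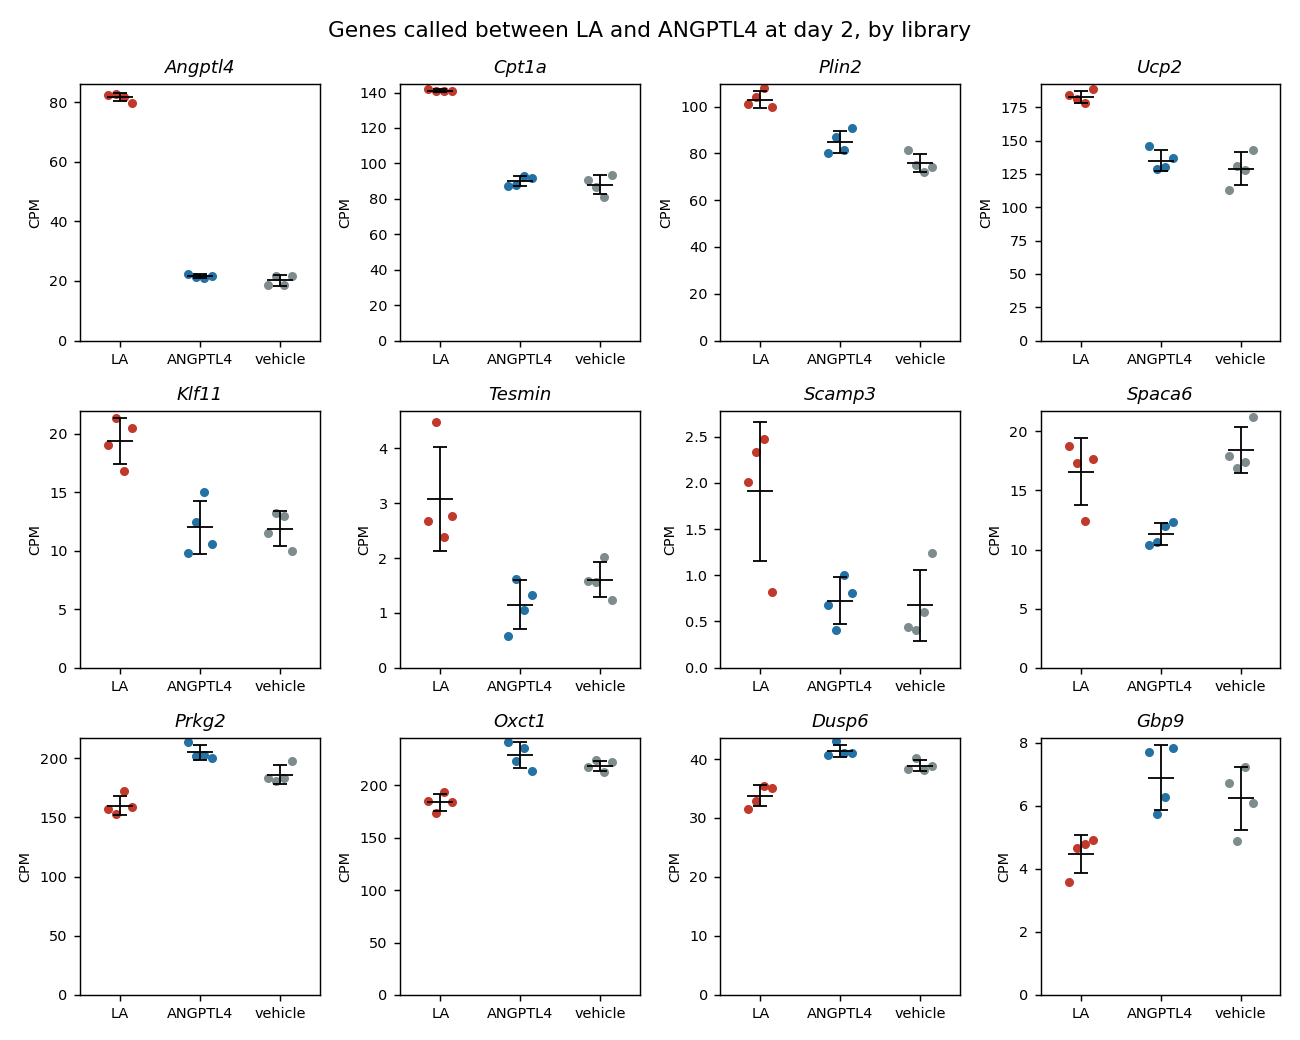
CPM of the 12 called genes in each day 2 library (y axes from 0), with LA in red, ANGPTL4 in blue and vehicle in grey; points are libraries, bars the mean ± SD of 4. Angptl4 shows the widest gap, 81.7 ± 1.32 CPM with LA and 21.6 ± 0.59 CPM with ANGPTL4, and Spaca6 is the gene in which LA lies near vehicle and ANGPTL4 lies below.

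The 4 genes called lower with LA changed by less than 2-fold. Prkg2, the type 2 cGMP-dependent protein kinase, had 157, 153, 172 and 159 CPM with LA, 214, 202, 203 and 200 CPM with ANGPTL4 and 183, 181, 183 and 198 CPM with vehicle. Its 3 groups did not overlap, with LA lowest, ANGPTL4 highest and vehicle between them. LA was below ANGPTL4 by 21.8% (fold 0.78, 0.73 to 0.83; log2FC -0.35, SE 0.046, adjusted p = 4.21e-05). LA was also below vehicle (log2FC -0.22, adjusted p = 0.00354), and ANGPTL4 was not called against vehicle (0.14, adjusted p = 0.0518).

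Oxct1, the mitochondrial transferase that activates ketone bodies for oxidation, had 185, 174, 194 and 184 CPM with LA, against 242, 223, 236 and 214 CPM with ANGPTL4 and 218, 224, 213 and 222 CPM with vehicle. LA libraries were the low ones here, and ANGPTL4 and vehicle overlapped (LA against ANGPTL4 log2FC -0.31, SE 0.056, adjusted p = 0.00537). The adjusted p was 0.0517 without LA replicate 1, 0.12 without LA replicate 2 and 0.0622 without ANGPTL4 replicate 3.

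Dusp6, a phosphatase that turns off ERK and is induced by ERK signalling, had 31.6, 32.9, 35.4 and 35.1 CPM with LA, 40.7, 43, 41 and 41.1 CPM with ANGPTL4 and 38.3, 40.2, 38.2 and 38.9 CPM with vehicle. LA libraries were below all others (LA against ANGPTL4 log2FC -0.30, SE 0.057, adjusted p = 0.0154). Leaving out LA replicate 1 or 2, or ANGPTL4 replicate 2 or 3, ended the call (adjusted p = 0.255, 0.136, 0.155 and 0.0637).

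Gbp9, of the interferon-inducible guanylate-binding proteins, had 3.58, 4.66, 4.79 and 4.91 CPM with LA, 7.71, 5.75, 6.29 and 7.83 CPM with ANGPTL4 and 6.72, 4.89, 7.25 and 6.1 CPM with vehicle. It fell by 35.9% with LA relative to ANGPTL4 (log2FC -0.64, SE 0.13, adjusted p = 0.0348). LA was also called lower than vehicle (log2FC -0.48, adjusted p = 0.0206), although 1 vehicle library, at 4.89 CPM, lay below the highest LA library, and ANGPTL4 was not called against vehicle (0.16, adjusted p = 0.471). Between LA and ANGPTL4 the call was lost without LA replicate 1 (adjusted p = 0.275), LA replicate 2 (0.12), ANGPTL4 replicate 1 (0.173) or ANGPTL4 replicate 3 (0.0622). Gbp9 belongs to a family of close paralogs, so its counts are uncertain.

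In the lipid lists, 1 gene each was called in the lists of fatty acid uptake and activation (Angptl4, of 15 tested), mitochondrial fatty acid oxidation (Cpt1a, of 18), lipid droplets and lipolysis (Plin2, of 13) and PPAR receptors with pyruvate dehydrogenase control (Ucp2, of 16). Their medians were close to that of all genes, with log2FC of 0.052, 0.028, 0.031 and 0.028. Unadjusted p was under 0.05 for 2 (13.3%), 4 (22.2%), 5 (38.5%) and 4 (25%) of their genes, against 12.4% of all genes tested. Of these, 1, 4, 5 and 1 were higher with LA, and the difference in shares was not tested. DESeq2 called 1, 1, 3 and 1 genes, and limma-voom 1 each. None was called in peroxisomal oxidation (15 tested), fatty acid synthesis and desaturation (17) or cholesterol synthesis (22). There, unadjusted p was under 0.05 for 1 gene each and DESeq2 and limma-voom called 0. With 0.0924% of all genes called, 0 calls in lists of this size is no result about them.

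Other genes of fatty acid use were not called. Pdk4, the kinase that restrains pyruvate dehydrogenase and a usual responder to fatty acids, had 36.2, 28.5, 38.8 and 28.4 CPM with LA, 30.2, 33.5, 33.1 and 33.9 CPM with ANGPTL4 and 33.4, 28.7, 28.6 and 41.5 CPM with vehicle. Its LA libraries straddled those of ANGPTL4 (fold 1.03, 0.88 to 1.2, adjusted p = 0.936). Lpl, lipoprotein lipase, averaged 64.7 ± 8.96 CPM with LA and 59.3 ± 5.66 CPM with ANGPTL4 (fold 1.1, 0.87 to 1.39, adjusted p = 0.789). The fatty acid transporter Cd36 averaged 66.3 ± 7.71 CPM with LA and 64.5 ± 11.7 CPM with ANGPTL4 (fold 1.03, 0.88 to 1.2, adjusted p = 0.934). For these 3 genes the intervals hold no difference between the treatments as large as that of Cpt1a.

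Within mitochondrial oxidation, Slc25a20, the carnitine-acylcarnitine carrier that works next to Cpt1a, had 24 to 29.3 CPM with LA and 20.7 to 23.6 CPM with ANGPTL4. Its groups did not overlap but the test was not passed (log2FC 0.26, adjusted p = 0.197). Acaa2, the thiolase of the last step, gave a log2FC of 0.17 (adjusted p = 0.294) and Hadha, of the trifunctional protein, -0.075 (adjusted p = 0.55). Slc27a1, a fatty acid transport protein, and Acsl3, an acyl-CoA synthetase, gave log2FC of 0.09 and -0.15 (adjusted p = 0.486 and 0.224, and 0.0452 for Acsl3 without ANGPTL4 replicate 4). The receptor transcripts Ppard and Pparg gave -0.068 and 0.079 (adjusted p = 0.759 and 0.839), and Scd2, a desaturase, gave 0.031 (adjusted p = 0.905). Genes of this paragraph were picked after earlier values were known.

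At the edge of the threshold were further genes of lipid storage. Lipe, hormone-sensitive lipase, had 3.74, 4.54, 4.83 and 5.62 CPM with LA and 2.76, 3.31, 2.49 and 2.96 CPM with ANGPTL4 (log2FC 0.68, SE 0.15, adjusted p = 0.0609). The droplet protein Plin4 had 17.5, 15.2, 12.6 and 14.4 CPM with LA and 9.36, 7.64, 9.36 and 10.2 CPM with ANGPTL4 (log2FC 0.71, SE 0.16, adjusted p = 0.0675). In both, every LA library exceeded every ANGPTL4 library, and DESeq2 called both (adjusted p = 0.0395 for Lipe and 0.0157 for Plin4). Both passed edgeR's threshold without LA replicate 3 (adjusted p = 0.045 and 0.0161), without LA replicate 4 (0.0228 and 0.0198) and without ANGPTL4 replicate 4 (0.0433 and 0.0454), and Lipe also without LA replicate 1 (0.0314). Adipocyte markers were otherwise scarce: 5 of the 14 listed were tested, and their summed level was 160.9 to 188.2 CPM with LA, 140.9 to 171.4 CPM with ANGPTL4 and 144.2 to 162.9 CPM with vehicle, most of it from Lpl and Cd36. The defining adipocyte genes Adipoq, Lep and Plin1 were not analysed here.

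The muscle programme was next compared between the treatments. With 0.0924% of all genes called at day 2, a short gene list without a call is no result about that list. None of 57 sarcomere genes was called in edgeR (median log2FC -0.029), while DESeq2 called 2 and limma-voom 1, against 32 and 22 of all 12994 genes. Unadjusted p was under 0.05 for 7 of the 57 (12.3%), against 12.4% of all genes tested. In excitation-contraction coupling 0 of 32 were called (median 0.025; 1 at unadjusted p under 0.05, 0 with the other tools). None of 18 fusion genes and 19 myogenic transcription factors was called in edgeR, DESeq2 or limma-voom, with 3 and 4 at unadjusted p under 0.05 (medians 0.0025 and -0.045).

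Myogenin (Myog), which drives terminal differentiation, had 868, 879, 1010 and 932 CPM with LA, 1010, 917, 896 and 957 CPM with ANGPTL4 and 838, 955, 863 and 714 CPM with vehicle. All 3 groups overlapped (LA over ANGPTL4 0.98-fold, 0.89 to 1.07, adjusted p = 0.876). Myod1, the myoblast determination factor, had 160, 158, 176 and 176 CPM with LA and 189, 187, 178 and 188 CPM with ANGPTL4, all LA libraries being lower, but it was not called (0.90-fold, 0.84 to 0.97, adjusted p = 0.219). It passed without LA replicates 3 and 4 together (adjusted p = 0.0332). Mef2a, a partner of myogenin and Myod1, averaged 631 ± 32.3 CPM with LA and 705 ± 48.7 CPM with ANGPTL4 (0.90-fold, 0.83 to 0.96, adjusted p = 0.184). It passed without ANGPTL4 replicate 4 (adjusted p = 0.0454).

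The membrane proteins of myoblast fusion gave 462 ± 31.7 CPM with LA and 463 ± 24.4 CPM with ANGPTL4 for Mymk (1.00-fold, 0.91 to 1.1) and 53.4 ± 2.35 and 49.6 ± 5.12 CPM for Mymx (1.08-fold, 0.98 to 1.19). Embryonic myosin Myh3 measured 4650 ± 311 CPM with LA and 4850 ± 534 CPM with ANGPTL4 (0.96-fold, 0.88 to 1.04), skeletal actin Acta1 2520 ± 78.2 and 2660 ± 97.8 CPM (0.95-fold, 0.88 to 1.02) and creatine kinase Ckm 166 ± 25.4 and 169 ± 19.5 CPM (0.98-fold, 0.85 to 1.14). None of these 5 was called (adjusted p from 0.525 to 0.997), and their intervals lay between 0.85-fold and 1.19-fold. Klhl40, a stabiliser of thin filament proteins, lay near the threshold, with 55.8, 59.1, 63.6 and 65.3 CPM with LA and 70.1, 73.1, 74.8 and 70.6 CPM with ANGPTL4 (log2FC -0.25, SE 0.055, adjusted p = 0.0609). It passed without LA replicate 3 (adjusted p = 0.0199), LA replicate 4 (0.00672) or ANGPTL4 replicate 4 (0.0435). The 10 skeletal muscle markers summed to 12460 to 13600 CPM with LA, 12840 to 14680 CPM with ANGPTL4 and 13190 to 14480 CPM with vehicle, so the cells of all groups carried the labelled muscle identity.

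Wnt signalling was the pathway named by the study. No gene of its lists was called between LA and ANGPTL4 at day 2 by edgeR, DESeq2 or limma-voom. The counts were 0 of 14 ligands and secretion genes, 0 of 18 receptors and 0 of 8 in the secreted antagonist list. They were also 0 of 20 of the β-catenin destruction complex and 0 of 18 targets and TCF/LEF factors. Unadjusted p was under 0.05 for 0, 3, 1, 0 and 2 genes of these lists, against 12.4% of all genes tested. With 0.0924% of all genes called, 0 calls in lists this short is no result about them. Ctnnb1, β-catenin, had 789, 787, 800 and 804 CPM with LA, 780, 819, 839 and 789 CPM with ANGPTL4 and 760, 748, 730 and 714 CPM with vehicle (LA over ANGPTL4 0.99-fold, 0.93 to 1.05, adjusted p = 0.903). Libraries of both treatments lay above the vehicle libraries, and neither was called against vehicle (adjusted p = 0.0872 with LA and 0.0528 with ANGPTL4).

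Lef1, a DNA-binding partner of β-catenin, had 16.7, 13.3, 14.2 and 14.1 CPM with LA, 17.1, 13.5, 13.9 and 14.4 CPM with ANGPTL4 and 17.7, 18.7, 16.6 and 21.4 CPM with vehicle. Both treatments gave lower levels than vehicle (log2FC -0.35, adjusted p = 0.0124 with LA and -0.33, adjusted p = 0.0239 with ANGPTL4). Between LA and ANGPTL4 the fold was 0.99 (0.87 to 1.13). Axin2, a feedback target of the pathway, averaged 10.6 ± 1.09 CPM with LA, 10.1 ± 0.45 CPM with ANGPTL4 and 11.5 ± 0.615 CPM with vehicle and was called in none of these comparisons (LA over ANGPTL4 1.07-fold, 0.94 to 1.22). Wls, needed for Wnt secretion, and the cyclin Ccnd1 gave 1.00-fold (0.94 to 1.06) and 1.09-fold (0.96 to 1.23).

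The 8 genes tested of the secreted antagonist list, of which Kremen1 is a receptor, all had a log2FC below 0. They ranged from -0.80 to -0.057 with a median of -0.19, without a call. Against vehicle, 8 were positive with ANGPTL4 (median 0.24, 1 called) and 4 with LA (median 0.027, 0 called). Over all genes these comparisons called 9.82% and 15.1%, so the calls among 8 genes are no result about this list. Sfrp2, which binds Wnt proteins, had 131, 103, 131 and 116 CPM with LA and 135, 115, 139 and 156 CPM with ANGPTL4 (log2FC -0.18, adjusted p = 0.583). For Sfrp1 the levels were 5.15, 5.74, 7.5 and 3.68 CPM with LA and 5.29, 6.22, 6.87 and 8.35 CPM with ANGPTL4 (-0.20, adjusted p = 0.756). Sfrp4, Igfbp4 and Kremen1, a receptor of Dkk proteins, gave -0.11, -0.10 and -0.057 (adjusted p = 0.762, 0.711 and 0.711). Dkk3 had 7.87, 8.18, 11.6 and 5.83 CPM with LA and 10.6, 9.94, 10.8 and 10.2 CPM with ANGPTL4 (-0.26, adjusted p = 0.392), and passed without LA replicate 3 (adjusted p = 0.0322).

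In the immediate early list, whose genes answer growth signals within a short time, Dusp6 was the member called, of 26 tested (median log2FC -0.072). That is 3.85%, against 0.0924% of all genes. Unadjusted p was under 0.05 for 5 of the 26 (19.2%), all lower with LA, against 12.4% of all genes tested. The difference in shares was not tested. Jun had 149, 137, 148 and 145 CPM with LA and 163, 161, 158 and 161 CPM with ANGPTL4, and Junb had 174, 164, 178 and 169 CPM with LA and 210, 184, 195 and 187 CPM with ANGPTL4. In both the LA libraries were all lower, and neither passed (log2FC -0.15, adjusted p = 0.18 and -0.18, adjusted p = 0.209). Nr4a2, an orphan nuclear receptor, had 4.25 to 5.02 CPM with LA and 5.29 to 7.54 CPM with ANGPTL4 (-0.52, adjusted p = 0.0609). It passed without LA replicate 3 (adjusted p = 0.0192), LA replicate 4 (0.0175) or ANGPTL4 replicate 1 (0.0188).

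The remaining pattern at day 2 was in ribosomal and respiratory transcripts, and between LA and ANGPTL4 it depended on single libraries. Of 81 cytosolic ribosomal proteins 74 had a positive log2FC (median 0.26), and of 74 respiratory chain genes 57 (median 0.21), yet 0 of either list were called in edgeR, DESeq2 or limma-voom. Unadjusted p was under 0.05 for 31 of the first list (38.3%) and 34 of the second (45.9%), against 12.4% of all genes tested. The 31 were all higher with LA, and of the 34, 32 were higher and 2 lower. Relative to the vehicle mean, the median ribosomal protein deviated by 0.66, 0.67, 0.83 and 0.059 on the log2(CPM + 1) scale in LA replicates 1 to 4, and by 0.38, 0.18, 0.19 and 0.46 in ANGPTL4 replicates 1 to 4. The respiratory chain gave 0.44, 0.55, 0.62 and 0.025 with LA and 0.23, 0.13, 0.14 and 0.35 with ANGPTL4. LA replicates 1 to 3 were high and LA replicate 4, the smallest library, was near vehicle. Against vehicle, LA called 62 of the 81 ribosomal proteins and 51 of the 74 respiratory chain genes higher, against 8.27% of all genes. ANGPTL4 called 16 and 12 of them higher, against 3.86% of all genes. At day 6 the medians of LA over ANGPTL4 were -0.046 and -0.14. There 0 ribosomal proteins and 8 respiratory chain genes were called, the 8 all lower with LA, against 7.32% of all genes called lower. In LA replicates 1, 2, 3 and 4, 40, 45, 60 and 0 of the 74 respiratory chain genes exceeded every ANGPTL4 library.

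Rpl39, of the large ribosomal subunit, had 138, 151, 165 and 54 CPM with LA and 58.7, 68.6, 70.6 and 97.3 CPM with ANGPTL4. Complex I subunit Ndufa1 had 28.9, 33.8, 31.7 and 13.1 CPM with LA and 16.4, 14.3, 14 and 20 CPM with ANGPTL4. Cox7c, of complex IV, had 49.6, 53.7, 54.5 and 18.9 CPM with LA and 29.4, 27.9, 26.5 and 38.2 CPM with ANGPTL4. In all 3 genes LA replicate 4 lay below every ANGPTL4 library and ANGPTL4 replicate 4 was the highest of its group. Adjusted p was 0.183, 0.0937 and 0.294 with all libraries, and 0.00185, 6.55e-06 and 0.00717 without LA replicate 4.

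Atp5k, an ATP synthase subunit, followed the same order (log2FC 0.61, adjusted p = 0.183, 2.07e-05 without LA replicate 4). Slc7a11, the cystine importer of the glutathione list, had 19.6, 18.7, 20.2 and 7.87 CPM with LA and 6.98, 7.03, 8.46 and 12.5 CPM with ANGPTL4 (log2FC 1.01, adjusted p = 0.0792, 0.000205 without LA replicate 4). Higd1a, a small protein of the inner mitochondrial membrane, had 28.3, 31.4, 32.1 and 20.7 CPM with LA and 20.3, 20.4, 20 and 23.2 CPM with ANGPTL4 (0.45, adjusted p = 0.0609, 0.000205 without LA replicate 4). Without ANGPTL4 replicate 4, adjusted p was 0.0483 for Ndufa1 and 0.0271 for both Slc7a11 and Higd1a, and Higd1a also passed without vehicle replicate 1 (0.0474) or 4 (0.0419). These genes were named after their values were seen. Ribosomal protein genes have near-identical copies, so their counts are uncertain.

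**Figure D3:**
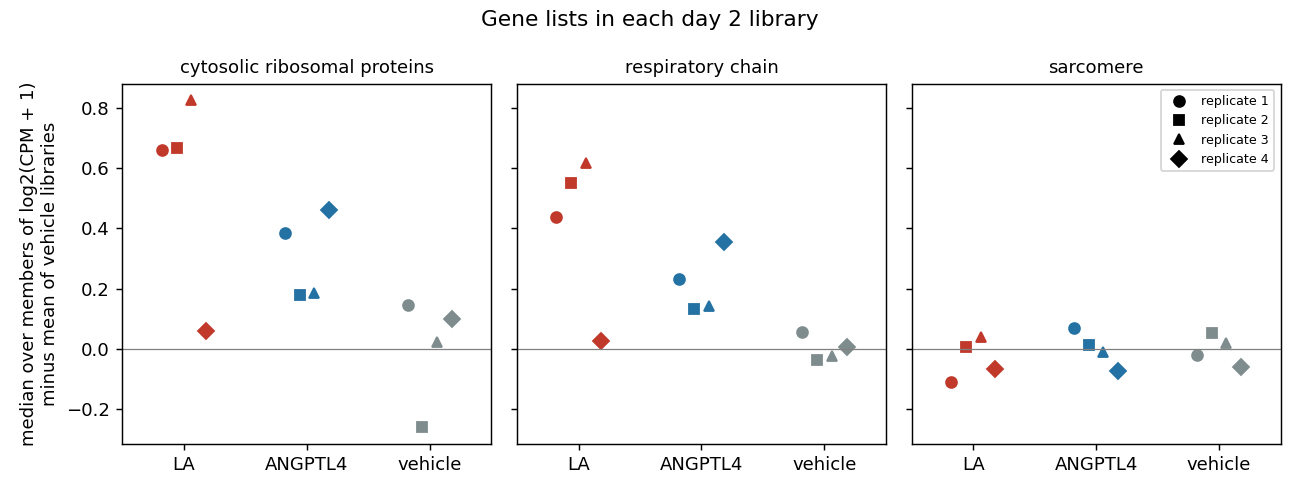
Median over list members of log2(CPM + 1) minus the mean of the vehicle libraries (y axis) in each day 2 library, with LA in red, ANGPTL4 in blue, vehicle in grey and symbols for replicates 1 to 4. For cytosolic ribosomal proteins LA replicates 1 to 3 lie at 0.66 to 0.83 and LA replicate 4 at 0.059, while sarcomere genes stay near 0 in every library.

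The number of calls depended on which library was left out. Without LA replicate 4, 363 genes were called (308 higher and 55 lower), without LA replicate 3, 159 (131 and 28), and without ANGPTL4 replicate 4, 102 (79 and 23). Leaving out LA replicate 1, LA replicate 2 or ANGPTL4 replicate 3 gave 7, 6 and 7. Leaving out vehicle replicate 4, which enters this comparison through the filter, the scaling and the shared estimate of spread, gave 24. Each of the 12 genes called with all libraries remained called without LA replicate 3, LA replicate 4 or ANGPTL4 replicate 4. Angptl4, Cpt1a and Prkg2 were called under all 36 alternatives. Without LA replicate 4, 363 of all genes tested were called. They included 32 of 81 cytosolic ribosomal proteins, 34 of 74 respiratory chain genes, 9 of 78 mitochondrial ribosome genes and 7 of 34 NRF2 and glutathione defence genes, all higher with LA. Without ANGPTL4 replicate 4 the 102 calls over all genes included 4 of the respiratory chain genes. Without LA replicate 3 the 159 calls included none of the respiratory chain or cytosolic ribosomal proteins.

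**Figure D4:**
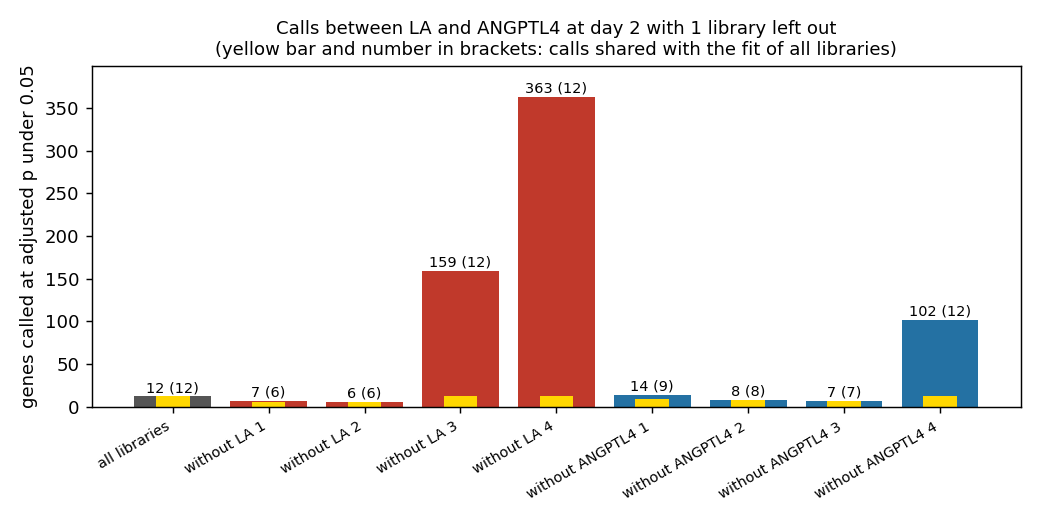
Genes called between LA and ANGPTL4 at day 2 (y axis) with all libraries (grey) and with each LA (red) or ANGPTL4 (blue) library left out; the yellow bar and the number in brackets count calls shared with the 12 of all libraries. The count is 363 without LA replicate 4, 159 without LA replicate 3 and 102 without ANGPTL4 replicate 4, and all 12 remain in each.

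The same treatments were compared at day 6 in separate libraries, which gave 1809 called genes (13.9%), 858 higher (6.6%) and 951 lower (7.32%) with LA. Of the 12 day 2 calls, 7 were called at day 6 in the same direction (58.3% of the day 2 calls and 0.387% of the day 6 calls) and 0 in the opposite direction. The contrast of day 2 minus day 6 tests whether the LA to ANGPTL4 difference itself differed between days, and it called 901 genes (6.93%), 416 with a positive difference (3.2%) and 485 with a negative one (3.73%). It called 6 of the 12. Angptl4 at day 6 had 302, 261, 306 and 269 CPM with LA and 18, 17.5, 18.6 and 22.1 CPM with ANGPTL4, a wider gap than at day 2 (day 2 minus day 6 log2 difference -1.97, adjusted p = 3.3e-16). Cpt1a had 247, 240, 254 and 258 CPM with LA and 73.9, 83.9, 79.8 and 83.5 CPM with ANGPTL4 (-0.98, adjusted p = 1.02e-11).

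Plin2, Ucp2 and Klf11 also differed less between LA and ANGPTL4 at day 2 than at day 6 (log2 differences -0.63, -0.89 and -0.59; adjusted p = 7.68e-07, 2.3e-05 and 0.0202). Prkg2 went the other way, lower with LA by a log2FC of -0.35 at day 2 and by -0.12 without a call at day 6 (-0.23, adjusted p = 0.0263). Oxct1 was lower with LA to a like extent on both days, -0.31 at day 2 and -0.30 at day 6. Pdk4 and Lpl, not called at day 2, differed between LA and ANGPTL4 by more at day 6. Pdk4 then had 111, 99.8, 126 and 111 CPM with LA and 35.9, 41.7, 41.5 and 35.1 CPM with ANGPTL4 (-1.50, adjusted p = 1.5e-06). Lpl had 26, 42.8, 34.8 and 47.7 CPM with LA and 4.42, 4.97, 7.28 and 5.18 CPM with ANGPTL4 (-2.63, adjusted p = 4.3e-05).

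The muscle and Wnt antagonist lists differed between days as well. In the sarcomere list 0 of 57 were called at day 2 and 50, all lower with LA, at day 6 (medians -0.029 and -0.41), and the contrast of days called 38. For Myh3 the LA to ANGPTL4 log2FC was -0.062 at day 2 and -0.39 at day 6 (difference 0.32, adjusted p = 0.0168) and for Acta1 -0.076 and -0.36 (0.29, adjusted p = 0.0123). Excitation-contraction coupling had 0 of 32 called at day 2 and 22 lower at day 6, with 15 called in the contrast of days. Of the 8 genes in the secreted Wnt antagonist list, 0 were called at day 2 and 6 were higher with LA at day 6, and the contrast called 6. Sfrp1 at day 6 had 9.88, 12.7, 10.1 and 15.5 CPM with LA and 3.57, 2.22, 1.62 and 3.6 CPM with ANGPTL4 (day 2 minus day 6 difference -2.32, adjusted p = 0.000286).

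Among β-catenin targets, 0 of 18 were called at day 2, and 5 were higher and 1 lower at day 6, with 4 called in the contrast of days. Ccn5, a matricellular protein of that list, had 36.7 to 40.9 CPM with LA and 29.2 to 36.2 CPM with ANGPTL4 at day 2, a difference that was not called (log2FC 0.18, adjusted p = 0.281). At day 6 it had 55.8 to 69 CPM with LA and 31.6 to 36.1 CPM with ANGPTL4 (day 2 minus day 6 difference -0.71, adjusted p = 4.38e-05). Collagens and matrix genes gave 0 of 42 at day 2 and 21 higher with 1 lower at day 6, with 13 called in the contrast. Fibroblast markers gave 0 of 12 at day 2, where they summed to 1673 to 1989 CPM with LA, 1687 to 1990 CPM with ANGPTL4 and 1584 to 1769 CPM with vehicle, and 8 higher with LA at day 6. In bulk libraries fewer cells of a type and less RNA per cell cannot be told apart.

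**Figure D5:**
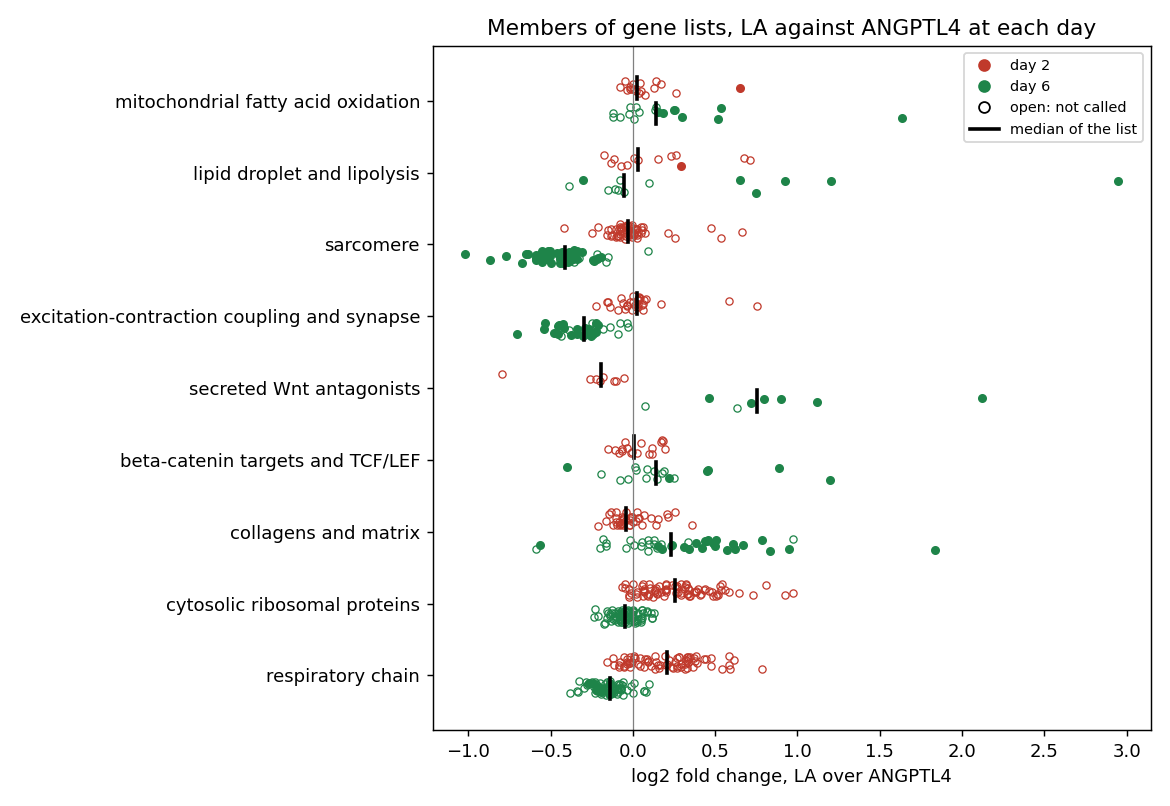
Log2 fold change of LA over ANGPTL4 (x axis) for members of 9 gene lists at day 2 (red, upper row of each list) and day 6 (green, lower row); filled points were called, open points were not, and bars mark list medians. At day 2, 1 point each is filled for fatty acid oxidation (Cpt1a) and lipid droplets (Plin2), and the sarcomere median is -0.029 at day 2 and -0.41 at day 6.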

How the data were processed

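Libraries were made from total RNA of integrity number above 7 with a QuantSeq 3′ kit, per the labels' protocols. Per the submitters' processing notes, the build was mm39 and the tools were DESeq, DESeq2, HTSeq 0.9.1, STAR 2.7.1a and Trimmomatic; order and settings are not given in the sources used here. The authors deposited raw read counts for 14693 genes, named by symbol, with at least 51 counts over 24 libraries. How genes were removed, and whether strand was used in counting, is not given in the sources used here, so genes that overlap others are uncertain.

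From these counts, edgeR 4.0.16 (R 4.3.3) kept 12994 genes (filterByExpr), scaled by TMM and fitted all 24 libraries in a robust quasi-likelihood model of 6 group means, with 18 residual degrees of freedom and a common biological coefficient of variation of 6.51%. Every adjusted p in the text is from this fit unless another tool or omission is named. SE are derived from the F statistic. Principal components used a prior count of 2. Replicates differed beyond sampling noise and were all kept. The procedure was checked on simulated counts. Promoter sequences and gene order came from RefSeq and GENCODE for GRCm38, matched by symbol.

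Named genes were 16 of lipid, muscle and Wnt biology, called genes of at least 5 CPM without overlap, leading members of the 43 lists, and the extremes of the contrast of days; others are marked in the text or were picked with their values known (Lipe, Sfrp4, Dkk3, Igfbp4, Ccnd1, Ccn5, Jun, Junb, Nr4a2, Klhl40). Of the 57 genes counted as named, 1 is not reported here. The members and lists were chosen with earlier results of these data known. Alternatives were DESeq2 size factors, library totals alone, no filter, 5 CPM in at least 4 libraries, DESeq2 1.42.0, limma-voom (limma 3.58.1), only the compared groups, a replicate block, thinning to the smallest total and omission of each library. The ones chosen after seeing the data were a fit of the day 2 libraries alone, the omission of 2 libraries together and the omission of libraries outside the compared groups.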

Additional observations from a re-analysis of the deposited data

Results flagged for a closer look

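Of 120 groups of 4 libraries examined, 6 held a library far from the other 3, where chance gives about 1 in 20. Most groups were levels of the genes named, the rest shares of the ribosomal and respiratory chain lists and library totals. Slc7a11 was low in LA replicate 4 (7.87 CPM, the others 18.7 to 20.2), as was Cox7c (18.9 CPM, the others 49.6 to 54.5). Higd1a was high in ANGPTL4 replicate 4 (23.2 CPM, the others 20 to 20.4). These are the libraries that also stood apart on the second principal component. Slc7a11 and Higd1a were named after their values were seen, so the overlap is no separate evidence. Dusp6 was high in ANGPTL4 replicate 2 (43 CPM, the others 40.7 to 41.1), Pparg in LA replicate 1 (7.91 CPM, the others 6.24 to 6.36), and Scd2 was low in LA replicate 3 (1990 CPM, the others 2110 to 2130).

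In 22 of the 57 genes named, the difference between LA and ANGPTL4 was itself different at day 2 and day 6 by edgeR's test of that contrast. Values are the day 2 minus day 6 difference in log2 fold change. Lipid genes had a higher LA to ANGPTL4 ratio at day 6: Angptl4 (-1.97), Cpt1a (-0.98), Plin2 (-0.63), Ucp2 (-0.89), Pdk4 (-1.5), Lpl (-2.63), Plin4 (-2.24) and Acaa2 (-0.35). The same direction was found for Klf11 (-0.59, a transcription factor), for the Wnt antagonists Sfrp1 (-2.32), Sfrp2 (-0.98), Sfrp4 (-1.01), Dkk3 (-0.73) and Igfbp4 (-0.82), and for Ccn5 (-0.71), Nr4a2 (-0.66) and Prkg2 (-0.23). The difference was positive for the muscle genes Mymk (0.39), Mymx (0.38), Myh3 (0.32) and Acta1 (0.29) and for Ndufa1 of the respiratory chain (1.04).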

How the results depend on the processing

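The 12 calls between LA and ANGPTL4 at day 2 (8 higher, 4 lower) became 32 (20, 12) with DESeq2, 22 (14, 8) with limma-voom, 6 (4, 2) with only the compared groups, 320 (263, 57) without LA replicate 3 and ANGPTL4 replicate 4 together, and 325 (269, 56) without LA replicates 3 and 4 together. Higher calls were 5 with the replicate block. Lower calls were 2 with thinned libraries and 2 with only day 2 libraries. Leaving out each library gave 6 to 363 calls (5 to 308 higher, 1 to 55 lower). Only the compared groups kept 4 of the 12. Of the values of 57 named genes under these alternatives, 1938 kept their side of the threshold, 46 lost and 64 gained the call. With a call in either fit, 0 turned direction. Without a call some did: Pdk4 and Cd36, above 0 with all libraries, were above 0 in 32 and 30 of 36 alternatives.

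Replicate numbers did not pair the libraries: same-numbered LA and ANGPTL4 libraries correlated in their deviations at -0.034, -0.12, -0.021 and -0.10. The replicate block left 8 calls and lost Gbp9, Scamp3 and Ucp2 (adjusted p = 0.0595 each) and Spaca6 (0.0628).

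At day 6, 1809 calls became 1061 with thinning (1272 to 1694 without 1 library), and the contrast of days 496 instead of 901 (612 to 1102). LA against vehicle at day 2 (1961 calls) gave 422 with only the compared groups, 943 thinned, 946 with only day 2 libraries, and 716 and 944 without the first and second pair of libraries above (632 to 2456 without 1 library). ANGPTL4 against vehicle (1276) gave 685, 504 and 534 in the first 3 of these (712 to 1192). The difference in totals was 0.539 to 5.71 M without 1 library. The causes were not tested. Thinning to the smallest total gave 9 calls between LA and ANGPTL4 at day 2 and kept 6 of the 12. Depth limits genes of a few CPM: Scamp3 then had no value, and Tesmin and Gbp9 were not called (adjusted p = 0.292 and 0.28). The loss was not confined to such genes, since Spaca6, Oxct1 and Dusp6 were not called either (0.101, 0.101 and 0.339).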

Other observations

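Other gene groups are given by counts at day 2, where 0.0924% of all genes were called, so that 0 calls in a list of this size is no result about it, and 12.4% had an unadjusted p under 0.05. DNA replication and mitosis genes had 0 of 40 called (median log2FC -0.091, 3 at unadjusted p under 0.05), collagens and matrix 0 of 42 (-0.041, 1) and the proteasome 0 of 34 (-0.0052, 2). The unfolded protein response had 0 of 35 (-0.025, 6), hypoxia genes 0 of 33 (0.026, 8) and interferon and antigen presentation 0 of 29 (0.039, 2). The shares at unadjusted p under 0.05 were 24.2% for hypoxia genes and 17.1% for the unfolded protein response, both above that of all genes, and the difference was not tested. DESeq2 and limma-voom also called 0 of these, other than 1 hypoxia gene each.

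Markers of other cell types were summed over each list. Endothelial markers gave 5.73 to 7.75 CPM with LA and 4.66 to 6.94 CPM with ANGPTL4, and macrophage markers 5.74 to 7.63 and 4.65 to 6.80 CPM. Cd68, of the 3 macrophage markers tested, averaged 2.47 ± 0.70 CPM with LA and 1.26 ± 0.574 CPM with ANGPTL4 (log2FC 0.94, adjusted p = 0.0937). The others did not follow it: Cd14 averaged 3.23 CPM with LA and 3.41 CPM with ANGPTL4, and Itgam 0.862 and 0.854 CPM. The macrophage genes Ptprc, Adgre1 and C1qa were not analysed here. Cd68 passed without LA replicate 3 (adjusted p = 0.027) or ANGPTL4 replicate 4 (0.0271). Smooth muscle markers, some shared with skeletal muscle, gave 4874 to 5267 CPM with LA and 4917 to 5726 CPM with ANGPTL4. Bone and cartilage markers, mostly Spp1, gave 1680 to 1857 CPM with LA, 1885 to 2119 CPM with ANGPTL4 and 1570 to 1845 CPM with vehicle, with 0 of 4 tested members called.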
